A study of Mus musculus with 4 samples.

Results

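Alternative 3' splice sites are places where 1 intron ends at either of a pair of acceptors, so that the exon after it starts earlier or later. They were followed in N2A cells, a mouse neuroblastoma line, in 4 libraries of poly(A) RNA sequenced with strand information. The groups were cells given an shRNA plasmid against Ptbp1, cells given one against Ptbp2, cells given both plasmids (the double knockdown) and cells given a control shRNA plasmid, each with 1 library. The plasmids were delivered with Lipofectamine and the cells were harvested 3 days later, so each group is 1 transfected culture of a single line with whatever untransfected cells it still held, and depletion was partial. Members were all events that the deposited SpliceTrap tables class as alternative 3' splice sites: 5602 of 228333 exon trios, of which 3662 had at least 20 reads over the trio in each of the 4 libraries. Those 3662 events came down to 3266 acceptor pairs, since a pair is listed again for each neighbouring exon, and lay in 2451 named genes. Most host genes had 1 tested pair (1917 genes), while 361 had 2 and 173 had 3 or more, up to 8 in 1 gene. With 1 library per group, differences cannot be set against a spread between replicates, so no p-value is given.

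An intron is recognised at its 3' end by a branch point, a run of pyrimidines that the splicing factor U2AF binds, and the AG that ends the intron. PTB proteins bind pyrimidine-rich RNA as well. Ptbp1 is made in most cell types, whereas its paralog Ptbp2 is made mainly in neurons, and Ptbp1 represses Ptbp2 through exon skipping and decay of the message. When the upstream acceptor is used, the mRNA gains the segment between both acceptors. A segment of a multiple of 3 nucleotides adds or removes amino acids, and any other length shifts the reading frame, which often brings a premature stop and nonsense-mediated decay. Tandem acceptors lie so close that a single branch point and tract may serve both; the commonest form, called NAGNAG, has its AGs 3 nucleotides apart.

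The alternative segments that the later results turn on are printed here from mouse transcripts of the GENCODE vM21 annotation (GRCm38), matched to the events by intron and exon lengths. Each line runs 5' to 3' on the transcript strand, with 25 bases on either side in lower case. Capitals mark the segment that only the upstream acceptor includes, so the upstream acceptor lies before the first capital and the downstream acceptor after the last. Coordinates are those of the segment on mm9, counted from 1. The short ones come first, since they show how little sequence separates a tandem pair.
Psap (6 nucleotides; chr10:59761840-59761845, plus strand): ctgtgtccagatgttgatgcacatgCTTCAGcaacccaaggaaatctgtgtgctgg
Kalrn (3 nucleotides; chr16:34014298-34014300, minus strand): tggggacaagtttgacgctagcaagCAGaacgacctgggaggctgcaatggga
Mdm4 (3 nucleotides; chr1:134909289-134909291, minus strand): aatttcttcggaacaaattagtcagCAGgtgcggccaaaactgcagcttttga
Tatdn3 (3 nucleotides; chr1:192873239-192873241, minus strand): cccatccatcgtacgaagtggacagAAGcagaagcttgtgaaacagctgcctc
Vezt (12 nucleotides; chr10:93456400-93456411, minus strand): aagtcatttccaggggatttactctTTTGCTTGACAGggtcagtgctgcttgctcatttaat
Tacc2 (12 nucleotides; chr7:137877020-137877031, plus strand): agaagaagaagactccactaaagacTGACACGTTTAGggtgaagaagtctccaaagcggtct

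The next set has longer segments, of 15 to 60 nucleotides, and includes events in RNA-binding proteins, a scaffold protein and a transcription factor.
Strn4 (21 nucleotides; chr7:17416814-17416834, plus strand): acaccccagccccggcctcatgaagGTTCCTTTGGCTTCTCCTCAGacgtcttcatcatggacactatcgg
Qk (24 nucleotides; chr17:10409301-10409324, minus strand): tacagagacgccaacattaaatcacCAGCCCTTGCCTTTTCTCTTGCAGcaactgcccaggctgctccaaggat
Depdc5 (27 nucleotides; chr5:33280170-33280196, plus strand): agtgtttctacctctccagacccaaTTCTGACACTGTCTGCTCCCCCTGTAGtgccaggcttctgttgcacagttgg
Elf2 (36 nucleotides; chr3:51068929-51068964, minus strand): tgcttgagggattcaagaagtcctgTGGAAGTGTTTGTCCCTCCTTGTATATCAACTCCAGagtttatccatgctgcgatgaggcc
Tial1 (51 nucleotides; chr7:135592234-135592284, minus strand): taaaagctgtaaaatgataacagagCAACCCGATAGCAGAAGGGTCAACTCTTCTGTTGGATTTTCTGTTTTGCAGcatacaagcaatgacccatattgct
Plekha6 (60 nucleotides; chr1:135166577-135166636, plus strand): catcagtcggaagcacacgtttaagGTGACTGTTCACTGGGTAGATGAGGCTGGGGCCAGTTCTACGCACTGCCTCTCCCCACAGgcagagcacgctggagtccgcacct
Cask (15 nucleotides; chrX:13114953-13114967, minus strand): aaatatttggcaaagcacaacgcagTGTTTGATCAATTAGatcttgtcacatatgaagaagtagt

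In the Qk segment, 85.0% of the 20 bases before the last AG were pyrimidines, and in the Strn4, Qk, Depdc5, Tial1 and Plekha6 segments the motif TTCT occurred. The Kalrn and Mdm4 pairs have the same triplet, CAG, between their acceptors, and Tatdn3 has AAG.

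The knockdowns were visible in the levels of the targeted genes. Ptbp1 was at 55.4 FPKM after Ptbp1 knockdown, 177.2 after Ptbp2 knockdown, 36.8 after double knockdown and 149.5 in control (FPKM rescaled to the same total in each library). Ptbp2 was at 76.0, 10.8 and 20.6 FPKM in those knockdowns and at 35.2 in control, so it was above control in the Ptbp1 knockdown and below control in the double knockdown. Of 14 markers of noradrenergic neuroblastoma, 12 were at 1 FPKM or more in every library, the exceptions being Nefl and Nefm, while the summed levels of 3 astrocyte, 3 microglia and 3 fibroblast markers were at most 0.307 FPKM each. The 3 oligodendrocyte markers summed to 1.90 FPKM after Ptbp1 knockdown, 2.75 after Ptbp2 knockdown, 1.92 after double knockdown and 2.49 in control, with Mbp and Mog under 1 FPKM in every library. The 3 endothelial markers summed to 1.44, 0.765 and 1.01 FPKM in those knockdowns and 1.07 in control, with Cdh5 and Kdr under 1 FPKM in every library; the part of such RNA in the results was not tested. In bulk RNA, fewer cells of a kind and less RNA per cell cannot be told apart. Reads over the trios of alternative 3' splice sites numbered 6.72 M after Ptbp1 knockdown, 8.01 M after Ptbp2 knockdown, 8.2 M after double knockdown and 8.21 M in control, with a median of 454, 466.5, 524.5 and 488 reads per tested event. Just outside the read limit, 18% of the 150 events whose lowest library had 10 to 19 reads differed by 20 points or more between Ptbp1 knockdown and control, and just inside it (20 to 29 reads) 13.2% of 121 events did.

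Use of the upstream acceptor was read in 2 ways. The SpliceTrap inclusion ratio is the estimated share of transcripts that hold the segment. The junction share is the fraction of acceptor junction reads that enter the segment, with a Wilson 95% interval. The intervals cover counting error only, since PCR copies are not independent molecules, and in genes on the minus strand the upstream reads of segments under 99 nucleotides are partly estimated. Both measures rest on the same reads. They were compared in control over the 3192 tested events with at least 20 acceptor junction reads in each library. Pearson r was 0.969 there, and the measures lay within 5 points of each other in 91.2% of those events.

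Across the tested pairs the acceptors were used very unequally. In control the upstream acceptor took under 10% of transcripts in 17.2% of pairs, over 90% in 42.4% and an intermediate share in 40.4%, which is 1318 of 3266 pairs. Intermediate use was most frequent at acceptors 3 nucleotides apart: it was seen in 65.9% of those 790 pairs, against 22% of the 614 pairs that were 4 to 12 apart, 35.7% of 880 pairs at 13 to 50, 36.4% of 634 pairs at 51 to 150 and 42.3% of 253 pairs farther apart. The other 95 pairs were 1 or 2 apart. At 4 to 12 nucleotides the upstream acceptor dominated instead, with a median of 96.3% in control. At 3 nucleotides the medians were 70.9% after Ptbp1 knockdown, 70.9% after Ptbp2 knockdown, 68.9% after double knockdown and 70.4% in control. Beyond 150 nucleotides they were 75.7% after Ptbp1 knockdown, 72.4% after Ptbp2 knockdown, 73.7% after double knockdown and 70.3% in control.

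**Figure D1:**
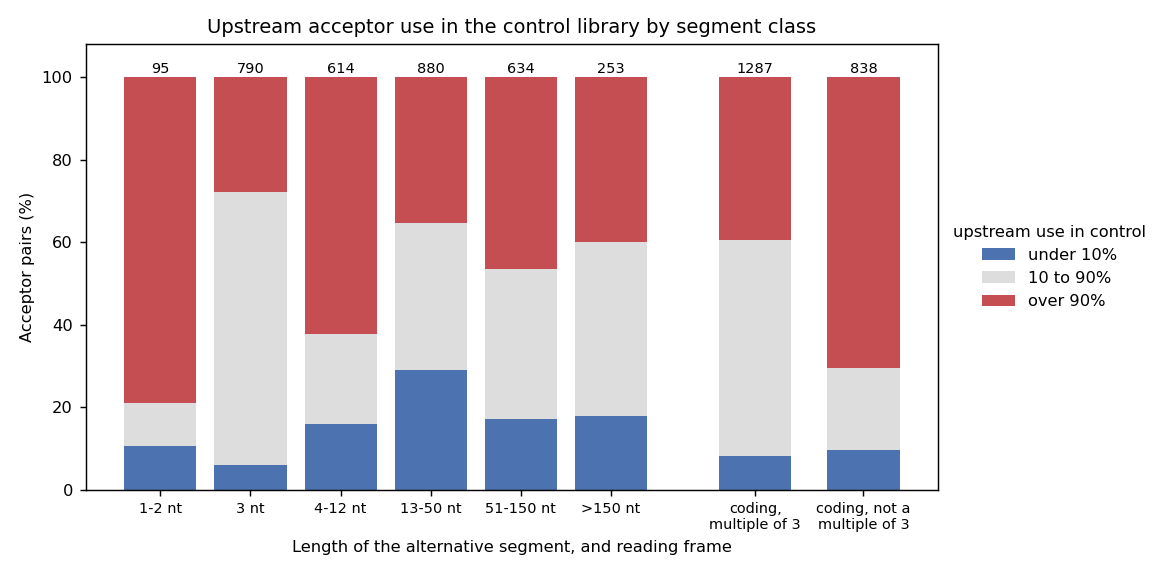
Use of the upstream acceptor in control (inclusion ratio in percent) by length of the alternative segment, as the share of acceptor pairs under 10%, between 10 and 90% and over 90%. Pairs 3 nucleotides apart have the largest intermediate share of the length classes, 65.9%, and pairs 4 to 12 apart are over 90% in 62.2%.

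Use also differed by reading frame. Of all pairs, 53.5% had a segment of a multiple of 3, and of the 2125 pairs whose segment lay wholly in coding sequence 60.6% did. Within coding sequence, 52.4% of the 1287 frame-keeping pairs were of intermediate use in control, against 19.8% of the 838 frame-shifting pairs, where the upstream acceptor took over 90% in 70.6%. Coding was assigned from a transcript that uses the upstream acceptor, which favours pairs whose upstream form is the annotated one. Over all 1520 frame-shifting pairs, 28.5% were intermediate and 50.3% were over 90%, against 50.7% and 35.6% of the 1746 frame-keeping pairs. Where segments held both coding and untranslated sequence, median upstream use in control was 21.2%. Frame-keeping coding pairs had a median of 79.9% after Ptbp1 knockdown, 80.0% after Ptbp2 knockdown, 79.5% after double knockdown and 80.7% in control. Many frame-keeping pairs are the 3-nucleotide ones, so length and frame overlap in this contrast; among pairs 4 to 12 apart, 29.2% of 216 frame-keeping and 18.1% of 398 frame-shifting pairs were intermediate. Pairs in the 5' UTR, where frame has no direct meaning, were intermediate in 53.6% of 373 cases. Of the 2125 coding segments, 8 held an in-frame stop codon and 2029 did not, and the rest were not assigned. A segment was classed as coding when it lay wholly within the annotated coding sequence of a transcript that includes it. Few stops thus follow from the class itself, and segments that run into untranslated sequence were counted apart.

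At acceptors 3 nucleotides apart, the first base of the triplet went with the level of use. The sequence could be read for 715 of the 790 pairs. CAG was the commonest triplet, with 461 pairs (64.5%), and its upstream acceptor had median use of 63.2% after Ptbp1 knockdown, 62.4% after Ptbp2 knockdown, 61.2% after double knockdown and 64.2% in control. TAG, with 70 pairs, had medians of 75.1, 72.4 and 74.3% in those knockdowns and 70.9% in control. AAG, with 140 pairs, had medians of 91.0, 92.0 and 91.7% in the knockdowns and 93.0% in control, and GAG, with 31 pairs, 99.9% in all 4 libraries. The order of the 4 triplets was thus the same in each library, and the quartiles of CAG and GAG did not overlap. No sequence could be read upstream of the upstream acceptor, so its own triplet does not enter these groups.

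**Figure D2:**
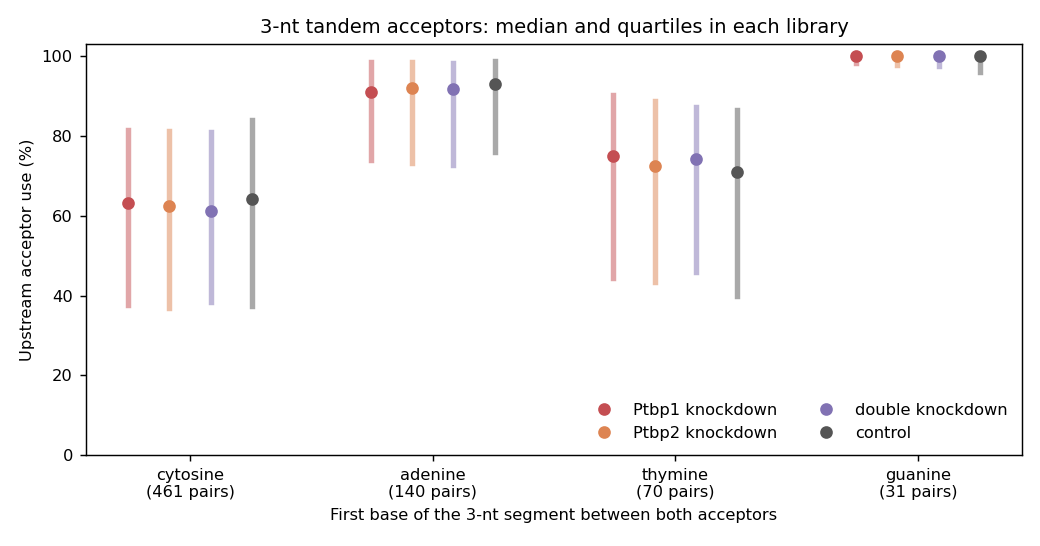
Use of the upstream acceptor (inclusion ratio in percent) at acceptors 3 nucleotides apart, by the base that opens the 3-nucleotide segment and by library, with medians and quartiles over pairs. In control the medians are 64.2% for cytosine, 70.9% for thymine, 93.0% for adenine and 99.9% for guanine.

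Most acceptor pairs differed little between each knockdown and control. The median difference in ratio from control was 0 points in each knockdown, and the standard deviation over events was 8.17 points after Ptbp1 knockdown, 8.86 after Ptbp2 knockdown and 9.10 after double knockdown. An event was counted when its ratio differed by 20 points or more. After Ptbp1 knockdown 60 events were higher than in control (1.64% of the 3662) and 39 lower (1.06%), where the same rule called 0.597% of all 143616 tested trios higher and 0.42% lower. After Ptbp2 knockdown 53 events were higher (1.45%, against 0.378% of all trios) and 52 lower (1.42%, against 0.449%). After double knockdown 76 were higher (2.08%, against 0.672%) and 44 lower (1.2%, against 0.62%). Between double and Ptbp1 knockdown 45 were higher (1.23%, against 0.404%) and 40 lower (1.09%, against 0.48%).

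Those background shares are carried by cassette trios, few of which were alternative in these cells: 4.51% of tested cassette trios had a ratio between 10 and 90% in control, against 42.2% of alternative 3' splice sites. Among trios of intermediate use in control, 4.98% of alternative 3' splice sites differed from control in either direction after Ptbp1 knockdown, against 13.5% of cassette exons. After Ptbp2 knockdown these shares were 5.24% and 10.6%, and after double knockdown 5.88% and 16%. Alternative 5' splice sites of intermediate use had 4.09% after Ptbp1 knockdown, 3.49% after Ptbp2 knockdown and 5.29% after double knockdown. Among intermediate trios, then, acceptor pairs had lower shares past the limit than cassette exons in all 3 knockdowns; no test of that difference was made, and median depth in control was 488 reads for acceptor pairs and 780 for cassette exons.

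A stricter count asked for 20 points in both measures, with at least 20 acceptor junction reads in each library, which 3192 events had. After Ptbp1 knockdown 20 events (0.627%) were then higher and 11 (0.345%) lower, in 18 and 11 acceptor pairs. The same rule over 121204 cassette exons, read by their inclusion and skipping junctions, called 0.197% higher and 0.0759% lower. After Ptbp2 knockdown 14 (0.439%) were higher and 11 (0.345%) lower, in 11 and 10 pairs, where cassette exons had 0.0264% and 0.0924%. After double knockdown 33 (1.03%) were higher and 14 (0.439%) lower, in 30 and 14 pairs, where cassette exons had 0.295% and 0.182%. As with the ratio alone, these backgrounds hold many cassette exons that were hardly alternative in these cells. Pairs whose junction intervals also lay apart numbered 15 higher and 8 lower after Ptbp1 knockdown, 6 and 4 after Ptbp2 knockdown, and 23 and 7 after double knockdown. In the rest of the text, higher and lower mean a difference of 20 points or more in both measures unless a value alone is given. The 3 knockdowns are set against the same control library, so a low or high control value enters all 3 differences.

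**Figure D3:**
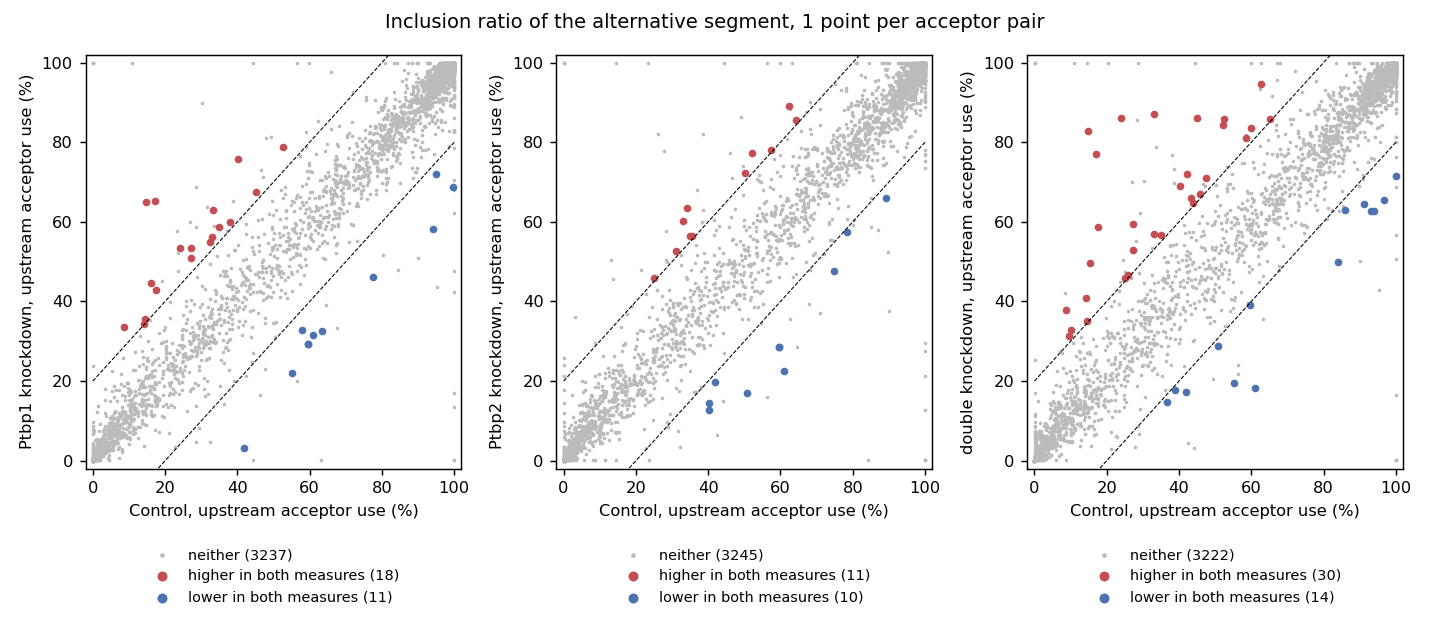
Inclusion ratio of the alternative segment in each knockdown (vertical axes, percent) against control (horizontal axes, percent), 1 point per tested acceptor pair; dashed lines mark differences of 20 points. Red and blue points passed 20 points in both measures: 18 higher and 11 lower after Ptbp1 knockdown, 11 and 10 after Ptbp2 knockdown, 30 and 14 after double knockdown.

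Segments of a multiple of 3, which keep the frame, were held by 1746 of all 3266 tested pairs. Of the pairs higher than in control they were held by 11 of 18 after Ptbp1 knockdown, 5 of 11 after Ptbp2 knockdown and 22 of 30 after double knockdown. Among the lower pairs the counts were 6 of 11, 5 of 10 and 10 of 14. Tandem pairs made up 7 of 18 higher pairs after Ptbp1 knockdown, 2 of 11 after Ptbp2 knockdown and 9 of 30 after double knockdown, and 5 of 11, 6 of 10 and 8 of 14 lower pairs, beside 1499 of 3266 tested pairs (45.9%). Pairs that were higher outnumbered pairs that were lower after Ptbp1 and after double knockdown, in numbers too small for more than a count. Cassette exons leaned the same way by this rule, with 0.197% higher and 0.0759% lower after Ptbp1 knockdown. After double knockdown they had 0.295% higher and 0.182% lower. By ratio with no read minimum the order after Ptbp1 knockdown was reversed, with 127 events higher and 155 lower.

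Several of the widest differences lay in genes of the cytoskeleton. Kif1b encodes a kinesin motor that carries organelles along microtubules; its 78-nucleotide segment (chr4:148632113-148632190, minus strand) had ratios of 64.9% after Ptbp1 knockdown, 7.3% after Ptbp2 knockdown, 82.9% after double knockdown and 14.7% in control. Its junction share was 54.2% (46.6 to 61.7%) after Ptbp1 knockdown, 5.83% (3.57 to 10.1%) after Ptbp2 knockdown, 79% (74.7 to 82.7%) after double knockdown and 9.52% (6.52 to 13.3%) in control. Both libraries with Ptbp1 knockdown were high, double knockdown above Ptbp1 knockdown with intervals apart, and both libraries without it were low. Its downstream acceptor alone is annotated in GENCODE. Enah, an Ena/VASP protein that promotes actin filament elongation, has a 732-nucleotide coding segment (chr1:183851900-183852631, minus strand) with ratios of 63.1% after Ptbp1 knockdown, 29.3% after Ptbp2 knockdown, 87% after double knockdown and 33.2% in control. Junction reads gave a share of 73.9% (69.6 to 77.9%) after Ptbp1 knockdown, 31.9% (26.8 to 37.4%) after Ptbp2 knockdown, 94.2% (92 to 95.8%) after double knockdown and 42.9% (37.4 to 48.6%) in control, so here too double knockdown stood above Ptbp1 knockdown, and Ptbp2 knockdown alone stood slightly below control. Tpm2, a tropomyosin that lies along actin filaments, has a 1142-nucleotide segment of coding and untranslated sequence (chr4:43527734-43528875, minus strand) that holds an in-frame stop. Its ratios were 53.4% after Ptbp1 knockdown, 21.9% after Ptbp2 knockdown, 86.1% after double knockdown and 24.1% in control. By junction reads the upstream acceptor took 71.4% (59.3 to 81.1%) after Ptbp1 knockdown, 25.3% (17.5 to 35.1%) after Ptbp2 knockdown, 94.7% (89.5 to 97.4%) after double knockdown and 21.2% (13.1 to 32.5%) in control, again highest after double knockdown, on fewer reads.

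Mtss2, a membrane- and actin-binding protein, had a 96-nucleotide coding segment (chr8:113255862-113255957, plus strand) with ratios of 78.8% after Ptbp1 knockdown, 55.6% after Ptbp2 knockdown, 85.8% after double knockdown and 52.5% in control. Its junction share was 79.5% (72.9 to 84.9%) after Ptbp1 knockdown, 85.1% (78.1 to 90.1%) after double knockdown and 52.2% (40.6 to 63.5%) in control, with the intervals of both knockdowns above control. Myo9b is an unconventional myosin motor. Its 106-nucleotide coding segment (chr8:73883457-73883562, plus strand) had ratios of 59.6% after Ptbp1 knockdown, 56.3% after Ptbp2 knockdown, 57.1% after double knockdown and 35.7% in control. It was higher in all 3 knockdowns, though the control share rests on 8 and 33 reads at the upstream and downstream acceptor and only the interval of the double knockdown lay apart from it. Arhgef40, a guanine nucleotide exchange factor, had ratios of 51% after Ptbp1 knockdown, 38% after Ptbp2 knockdown, 59.4% after double knockdown and 27.3% in control for a 110-nucleotide coding segment (chr14:52624554-52624663, plus strand). Junction reads gave a share of 57.6% (49 to 65.7%) after Ptbp1 knockdown, 60% (49.9 to 69.3%) after double knockdown and 33.3% (25.3 to 42.4%) in control, and the segment holds an in-frame stop.

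Other higher pairs lay in genes of varied roles. Psap encodes prosaposin, the precursor of the saposins that help degrade sphingolipids in lysosomes, and had more acceptor junction reads in control than any other named pair. Its 6-nucleotide segment (chr10:59761840-59761845, plus strand) had ratios of 43% after Ptbp1 knockdown, 11.6% after Ptbp2 knockdown, 58.8% after double knockdown and 17.5% in control. The reads at the upstream and downstream acceptor were 537 and 780 after Ptbp1 knockdown, 193 and 1764 after Ptbp2 knockdown, 599 and 472 after double knockdown and 298 and 1659 in control. The junction share was accordingly 40.8% (38.2 to 43.5%) after Ptbp1 knockdown, 9.86% (8.62 to 11.3%) after Ptbp2 knockdown, 55.9% (52.9 to 58.9%) after double knockdown and 15.2% (13.7 to 16.9%) in control, and no interval overlapped another. Double knockdown was thus highest, Ptbp1 knockdown next, and Ptbp2 knockdown below control. Strn4, a striatin-family scaffold of protein phosphatase 2A, had a 21-nucleotide segment (chr7:17416814-17416834, plus strand) with ratios of 67.5% after Ptbp1 knockdown, 49.4% after Ptbp2 knockdown, 86% after double knockdown and 45.1% in control. By junction reads the upstream acceptor took 67% (62.8 to 70.9%) after Ptbp1 knockdown, 49.6% (45.5 to 53.8%) after Ptbp2 knockdown, 85.8% (83 to 88.1%) after double knockdown and 42.6% (38.6 to 46.8%) in control, so that only the interval of Ptbp2 knockdown overlapped control. Both segments keep the frame.

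Dennd6b, a DENN-domain exchange factor for Rab GTPases, had a 52-nucleotide segment (chr15:89017429-89017480, minus strand) that shifts the frame, with ratios of 75.8% after Ptbp1 knockdown, 12.7% after Ptbp2 knockdown, 68.9% after double knockdown and 40.2% in control. Its junction share was 78.7% (68.7 to 86%) after Ptbp1 knockdown, 10.4% (3.24 to 24.2%) after Ptbp2 knockdown, 68.3% (57.5 to 77.6%) after double knockdown and 44.9% (26.7 to 62.9%) in control: it was higher in the Ptbp1 and double knockdowns and lower in the Ptbp2 knockdown, with 3 and 29 reads there and 11 and 14 in control. Bmp1, a secreted protease that processes procollagens, had a 658-nucleotide segment (chr14:70886080-70886737, minus strand) annotated in the 3' UTR, in a transcript classed as a target of nonsense-mediated decay. Its ratios were 44.6% after Ptbp1 knockdown, 10.9% after Ptbp2 knockdown, 30.6% after double knockdown and 16.1% in control. Junction reads gave a share of 68.6% (59.8 to 76.3%) after Ptbp1 knockdown and 54.5% (45.2 to 63.5%) after double knockdown. In control it was 29.6% (20.8 to 40.3%), and after Ptbp2 knockdown 17.8% (10.7 to 28.1%). The Ptbp1 knockdown library was highest, the double knockdown lay between it and control, and only Ptbp1 knockdown passed the limit in both measures. Double knockdown passed it by junction reads (24.9 points, intervals apart) but not by ratio (14.5 points). Cox11, a copper chaperone of cytochrome c oxidase, had ratios of 33.5% after Ptbp1 knockdown, 21.4% after Ptbp2 knockdown, 37.9% after double knockdown and 8.7% in control for a 12-nucleotide segment (chr11:90501679-90501690, plus strand). Junction reads gave a share of 32.8% (25.1 to 41.5%) after Ptbp1 knockdown, 20.2% (13.3 to 29.4%) after Ptbp2 knockdown, 38.9% (28.5 to 50.4%) after double knockdown and 5.43% (2.34 to 12.1%) in control, so all 3 knockdowns were above control although Ptbp2 knockdown stayed under the 20-point limit. Ankzf1, which acts in quality control of stalled ribosomes, had ratios of 34.4% after Ptbp1 knockdown, 20.8% after Ptbp2 knockdown, 41% after double knockdown and 14.2% in control for a 31-nucleotide coding segment (chr1:75192144-75192174, plus strand), high in both libraries with Ptbp1 knockdown. That segment shifts the frame, and its upstream acceptor is annotated only in the class of targets of nonsense-mediated decay. Ralgapa1, a subunit of the GTPase-activating complex for Ral, had ratios of 20.7% after Ptbp1 knockdown, 0.1% after Ptbp2 knockdown, 27.8% after double knockdown and 0.1% in control for a 3-nucleotide segment (chr12:56705256-56705258, minus strand). The upstream and downstream acceptor had 8 and 26 reads after Ptbp1 knockdown and 12 and 26 after double knockdown, against 0 and 42 after Ptbp2 knockdown and 0 and 72 in control. The pair is listed again with another upstream exon, on fewer junction reads than the minimum, and there the ratios were 35.7% after Ptbp1 knockdown, 0.1% after Ptbp2 knockdown, 35.1% after double knockdown and 14.5% in control.

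**Figure D4:**
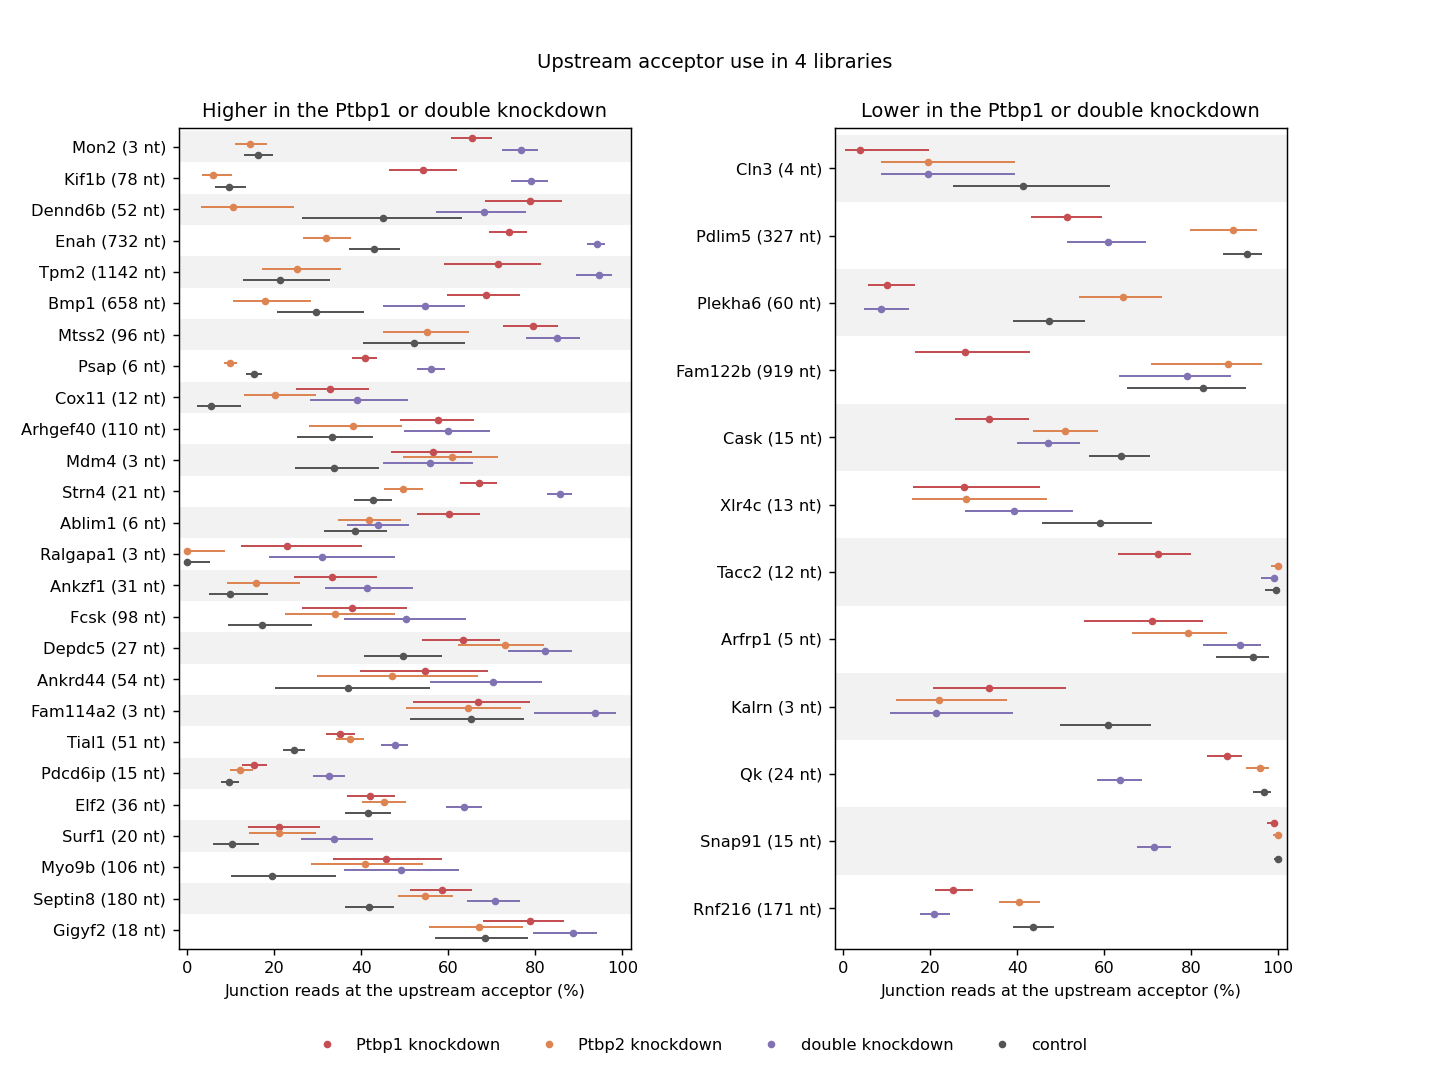
Junction share of the upstream acceptor (percent, with Wilson 95% intervals) in the 4 libraries for the pairs that passed both measures with intervals apart in the Ptbp1 or the double knockdown (26 higher, left; 12 lower, right). Psap lies at 40.8% after Ptbp1 knockdown and 55.9% after double knockdown, against 15.2% in control, and Plekha6 at 9.92% and 8.66%, against 47.2%.

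Fewer pairs were lower, and in these the upstream acceptor gave way to the downstream one. Pdlim5, a PDZ and LIM domain protein of actin-based structures, had a 327-nucleotide coding segment (chr3:141975179-141975505, minus strand) with ratios of 58.2% after Ptbp1 knockdown, 92.3% after Ptbp2 knockdown, 62.7% after double knockdown and 94% in control. By junction reads the upstream acceptor took 51.4% (43.4 to 59.3%) after Ptbp1 knockdown, 89.6% (80 to 94.8%) after Ptbp2 knockdown, 60.9% (51.7 to 69.3%) after double knockdown and 92.8% (87.6 to 95.9%) in control, low in both libraries with Ptbp1 knockdown. Plekha6, a pleckstrin homology domain protein, had a 60-nucleotide segment (chr1:135166577-135166636, plus strand) with ratios of 22% after Ptbp1 knockdown, 68.1% after Ptbp2 knockdown, 19.5% after double knockdown and 55.1% in control. Its junction share was 9.92% (5.89 to 16.2%) after Ptbp1 knockdown, 64.3% (54.4 to 73.1%) after Ptbp2 knockdown, 8.66% (4.91 to 14.8%) after double knockdown and 47.2% (39.2 to 55.3%) in control, and the intervals of the Ptbp1 and double knockdowns lay apart from control. Rnf216, an E3 ubiquitin ligase, had a 171-nucleotide coding segment (chr5:143852438-143852608, minus strand) with ratios of 20% after Ptbp1 knockdown, 33.3% after Ptbp2 knockdown, 17.7% after double knockdown and 39% in control. It was lower in both measures after double knockdown, with a share of 25.2% (21.3 to 29.7%) after Ptbp1 knockdown, 20.8% (17.8 to 24.2%) after double knockdown and 43.6% (39.2 to 48.1%) in control.

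Cask, a membrane-associated scaffold kinase of synapses, had a 15-nucleotide segment (chrX:13114953-13114967, minus strand) with ratios of 32.5% after Ptbp1 knockdown, 51% after Ptbp2 knockdown, 46.4% after double knockdown and 63.3% in control. Junction reads gave a share of 33.5% (25.8 to 42.4%) after Ptbp1 knockdown, 47.1% (40.1 to 54.2%) after double knockdown and 63.8% (56.7 to 70.4%) in control, lower after Ptbp1 knockdown by the rule and in between after double knockdown. Tacc2, a centrosomal protein of the transforming acidic coiled-coil family, had a 12-nucleotide segment (chr7:137877020-137877031, plus strand) with ratios of 68.8% after Ptbp1 knockdown, 99.9% after Ptbp2 knockdown, 98.7% after double knockdown and 99.7% in control. Its share was 72.3% (63.4 to 79.8%) after Ptbp1 knockdown, 98.9% (96.2 to 99.7%) after double knockdown and 99.5% (97.3 to 99.9%) in control, so the Ptbp1 knockdown library stood apart from the other 3, the double knockdown included. Fam122b had the same arrangement with a 919-nucleotide segment (chrX:50598549-50599467, minus strand) and ratios of 46.1% after Ptbp1 knockdown, 78.7% after Ptbp2 knockdown, 75.8% after double knockdown and 77.6% in control, with 12 and 31 reads at the upstream and downstream acceptor after Ptbp1 knockdown and 24 and 5 in control. By junction reads its share was 27.9% (16.7 to 42.7%) after Ptbp1 knockdown, 88.5% (71 to 96%) after Ptbp2 knockdown, 78.9% (63.7 to 88.9%) after double knockdown and 82.8% (65.5 to 92.4%) in control. With 1 library per group, a difference seen in 1 library only cannot be told apart from a feature of that library. Xlr4b and Xlr4c, near-identical genes on the X chromosome, were both lower after Ptbp1 knockdown, but they had the same ratio in each library and shared downstream reads, so they are uncertain as 2 events.

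A set of pairs lay farthest from control in the double knockdown library, and some of these also differed from control in single knockdowns. Qk encodes quaking, an RNA-binding protein that regulates splicing and myelin gene mRNAs. Its 24-nucleotide segment (chr17:10409301-10409324, minus strand) had ratios of 87.9% after Ptbp1 knockdown, 95.7% after Ptbp2 knockdown, 65.4% after double knockdown and 96.7% in control. By junction reads the upstream acceptor took 88.2% (83.9 to 91.5%) after Ptbp1 knockdown, 95.9% (92.9 to 97.6%) after Ptbp2 knockdown, 63.6% (58.6 to 68.3%) after double knockdown and 96.6% (94.4 to 98%) in control, lower in the double knockdown than in control and than in the Ptbp1 knockdown, with intervals apart. Snap91, which assembles clathrin coats at synaptic vesicles, had ratios of 99.2% after Ptbp1 knockdown, 99.9% after Ptbp2 knockdown, 71.4% after double knockdown and 99.9% in control for a 15-nucleotide segment (chr9:86676539-86676553, minus strand). The downstream acceptor had 163 reads after double knockdown and 5 after Ptbp1 knockdown, against 0 in control and 0 after Ptbp2 knockdown. Neither acceptor of this pair was matched in GENCODE, and the upstream one lies in a RefSeq transcript.

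Elf2, an ETS transcription factor, had a 36-nucleotide segment (chr3:51068929-51068964, minus strand) with ratios of 41.9% after Ptbp1 knockdown, 46.7% after Ptbp2 knockdown, 66% after double knockdown and 43.4% in control. Its junction share was 42% (36.8 to 47.6%) after Ptbp1 knockdown, 45.2% (40.3 to 50.1%) after Ptbp2 knockdown, 63.7% (59.6 to 67.6%) after double knockdown and 41.5% (36.5 to 46.7%) in control: the single knockdowns overlapped control and the double knockdown lay above all of them. Tial1, an RNA-binding protein of stress granules that also promotes use of weak splice sites, had a 51-nucleotide segment (chr7:135592234-135592284, minus strand) with ratios of 40.3% after Ptbp1 knockdown, 41.5% after Ptbp2 knockdown, 52.9% after double knockdown and 27.3% in control. Junction reads gave a share of 35% (32 to 38.2%) after Ptbp1 knockdown, 37.3% (34.5 to 40.3%) after Ptbp2 knockdown, 47.6% (44.8 to 50.5%) after double knockdown and 24.4% (22.1 to 26.9%) in control, so all 3 knockdowns were above control with intervals apart, and only the double knockdown passed 20 points in both measures. Depdc5, a subunit of the GATOR1 complex that restrains mTORC1, had ratios of 68% after Ptbp1 knockdown, 77.4% after Ptbp2 knockdown, 84.3% after double knockdown and 52.2% in control for a 27-nucleotide segment (chr5:33280170-33280196, plus strand). It was higher in the Ptbp2 and double knockdowns, at 63.4% (54.2 to 71.7%) after Ptbp1 knockdown, 73.1% (62.3 to 81.7%) after Ptbp2 knockdown, 82.1% (74 to 88.1%) after double knockdown and 49.6% (40.9 to 58.3%) in control. Ankrd44, a regulatory subunit of protein phosphatase 6, had ratios of 57% after Ptbp1 knockdown, 47.7% after Ptbp2 knockdown, 72% after double knockdown and 42.3% in control for a 54-nucleotide segment (chr1:54791904-54791957, minus strand), and only the double knockdown was higher by the rule. Its junction interval after double knockdown, 56.0 to 81.3%, overlapped that after Ptbp1 knockdown, 39.9 to 68.8%. In control the interval was 20.2 to 55.5%, on 9 and 16 reads at the upstream and downstream acceptor.

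Double and Ptbp1 knockdown were also compared directly, since they differ in the shRNA against Ptbp2. They also differed in the level of Ptbp1, at 36.8 FPKM after double knockdown and 55.4 after Ptbp1 knockdown. Lower Ptbp2 and lower Ptbp1 cannot be told apart in this comparison. In both measures 10 pairs were higher and 14 lower after double knockdown than after Ptbp1 knockdown (0.345% and 0.439% of events, beside 0.0974% and 0.0932% of cassette exons), of which 9 and 6 had intervals apart. Tpm2, Enah and Elf2 were among the higher ones and Snap91 and Qk among the lower. Tandem pairs were 5 of the 10 higher and 11 of the 14 lower ones, beside 45.9% of all tested pairs. In Stxbp2, a partner of syntaxins in secretion, the ratios of a 3-nucleotide segment (chr8:3641895-3641897, plus strand) were 35.3% after Ptbp1 knockdown, 24% after Ptbp2 knockdown, 3.6% after double knockdown and 15.8% in control, with 1 and 20 reads at both acceptors after double knockdown. In Dop1a, a protein of Golgi and endosome traffic, the ratios of a 3-nucleotide segment (chr9:86406165-86406167, plus strand) were 79.5% after Ptbp1 knockdown, 63.8% after Ptbp2 knockdown, 47.8% after double knockdown and 67.7% in control. In both of these the Ptbp1 and double knockdowns lay on opposite sides of control, but neither had a junction interval apart from control. For Stxbp2 the intervals were 27.7 to 55.6% after Ptbp1 knockdown, 0.846 to 22.7% after double knockdown and 7.65 to 31.1% in control. For Dop1a they were 66.7 to 87.5%, 36.1 to 62.1% and 53.0 to 79.1% in the same order.

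Ptbp2 knockdown gave the smallest set with intervals apart of the 3 knockdowns. Vezt, a transmembrane protein of adherens junctions, had a 12-nucleotide segment (chr10:93456400-93456411, minus strand) with ratios of 42% after Ptbp1 knockdown, 63.4% after Ptbp2 knockdown, 36% after double knockdown and 34.1% in control. By junction reads the upstream acceptor took 39.8% (31.9 to 48.3%) after Ptbp1 knockdown, 62.2% (51.7 to 71.9%) after Ptbp2 knockdown, 34.3% (26.7 to 43%) after double knockdown and 33.5% (27.4 to 40.2%) in control, so the Ptbp2 knockdown library was the high one. Mdm4, an inhibitor of p53, had a 3-nucleotide segment (chr1:134909289-134909291, minus strand) with ratios of 56.2% after Ptbp1 knockdown, 60.1% after Ptbp2 knockdown, 57% after double knockdown and 33.1% in control. Its share was 56.4% (47 to 65.3%) after Ptbp1 knockdown, 60.8% (49.9 to 71.2%) after Ptbp2 knockdown, 55.8% (45.3 to 65.4%) after double knockdown and 33.7% (24.9 to 43.8%) in control: all 3 knockdowns were above control and their intervals overlapped each other. Kalrn, a protein of dendritic spines, stood the other way round at a 3-nucleotide segment (chr16:34014298-34014300, minus strand), with ratios of 31.5% after Ptbp1 knockdown, 22.5% after Ptbp2 knockdown, 18.4% after double knockdown and 61% in control. Its share was 33.6% (20.8 to 50.8%) after Ptbp1 knockdown, 22% (12.3 to 37.5%) after Ptbp2 knockdown, 21.4% (11 to 38.8%) after double knockdown and 60.9% (50 to 70.5%) in control, with few reads in the knockdowns. For Mdm4 and Kalrn the 3 differences rest on 1 control value and are not separate observations.

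Tatdn3, a TatD-family nuclease, was lower after Ptbp2 knockdown at a 3-nucleotide segment (chr1:192873239-192873241, minus strand), with ratios of 34.9% after Ptbp1 knockdown, 17% after Ptbp2 knockdown, 28.7% after double knockdown and 50.7% in control and 6 and 28 reads at both acceptors after Ptbp2 knockdown. Armcx2, an armadillo-repeat protein, was higher at a 57-nucleotide segment of the 5' UTR (chrX:131342982-131343038, minus strand), with ratios of 85.4% after Ptbp1 knockdown, 89.2% after Ptbp2 knockdown, 79% after double knockdown and 62.4% in control. Zbtb48, a zinc-finger protein of telomeres, was higher at a 115-nucleotide segment (chr4:151396229-151396343, minus strand) with ratios of 38.1% after Ptbp1 knockdown, 56.4% after Ptbp2 knockdown, 43.3% after double knockdown and 35.5% in control. Its share was 29.7% (22.7 to 37.8%) after Ptbp1 knockdown, 56.9% (50.3 to 63.4%) after Ptbp2 knockdown, 44.4% (37.9 to 51.1%) after double knockdown and 32.3% (25 to 40.7%) in control, high in the Ptbp2 knockdown library and, by less, in the double knockdown. Hdac10, a deacetylase of polyamines, had ratios of 67.8% after Ptbp1 knockdown, 85.7% after Ptbp2 knockdown, 77.2% after double knockdown and 64.4% in control for a 175-nucleotide segment (chr15:88954684-88954858, minus strand), whose junction shares were far lower, at 50% (32.6 to 67.4%) after Ptbp2 knockdown and 15.2% (6.65 to 30.9%) in control.

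Short segments can stand for another kind of event. For 14 tested events GENCODE holds an exon of the same length inside the same intron, and a read across so short a piece does not show where it lay. Of these, 7 also have a cassette trio in the tables and 7 do not. Mon2, which acts in traffic between Golgi and endosomes, is one without. It was listed as a tandem pair 3 nucleotides apart (chr10:122460001-122460003, minus strand), and had ratios of 65.3% after Ptbp1 knockdown, 15.1% after Ptbp2 knockdown, 77% after double knockdown and 17.1% in control. Its junction share was 65.5% (60.9 to 69.7%) after Ptbp1 knockdown, 14.3% (11.2 to 18%) after Ptbp2 knockdown, 76.7% (72.6 to 80.3%) after double knockdown and 16.2% (13.3 to 19.5%) in control, high in both libraries with Ptbp1 knockdown. GENCODE has a 3-nucleotide exon 141 nucleotides before the exon that starts at the downstream acceptor. Use of the tandem acceptor and inclusion of that 3-nucleotide exon cannot be told apart here. Kdm1a, a histone demethylase, has a 12-nucleotide exon 2277 nucleotides before the exon at its downstream acceptor. Reads of the listed segment made up 0.628% after Ptbp1 knockdown, 0.215% after Ptbp2 knockdown, 0.780% after double knockdown and 0.167% in control. Gramd1b, a sterol transfer protein, has a cassette trio for its 12-nucleotide exon, with ratios of 43.5% after Ptbp1 knockdown, 2.7% after Ptbp2 knockdown, 53.1% after double knockdown and 2.3% in control, and its acceptor event had 7.8, 0.1 and 4.6% in those knockdowns and 0.1% in control. The exons of Mon2 and Kdm1a are shown in capitals between their neighbouring exons, beside the coordinates of the segment that the tables list, which are not those of the exon.
Mon2 (annotated 3-nucleotide exon; chr10:122460001-122460003, minus strand): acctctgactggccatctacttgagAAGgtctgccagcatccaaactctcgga
Kdm1a (annotated 12-nucleotide exon; chr4:136117076-136117087, minus strand): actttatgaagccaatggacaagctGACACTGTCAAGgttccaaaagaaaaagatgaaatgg

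Host genes were also read by lists, which were drawn up with earlier results of these data known and so carry no weight as independent evidence. Over all tested pairs, 0.888% passed both measures in either direction after Ptbp1 knockdown, 0.643% after Ptbp2 knockdown and 1.35% after double knockdown. Of 22 cytoskeleton and adhesion genes with 28 tested pairs, Enah, Kif1b, Myo9b and Tpm2 were higher after Ptbp1 and after double knockdown, Myo9b was higher after Ptbp2 knockdown, and none was lower. The median absolute difference in this list was 4.75 points after Ptbp1 knockdown, 2.35 after Ptbp2 knockdown and 3.65 after double knockdown, beside 1.4, 1.6 and 1.6 points over all pairs. Of 19 genes known for exons under PTB control, with 24 pairs, Kif1b and Tpm2 were higher after Ptbp1 and double knockdown and none after Ptbp2 knockdown. Of 31 splicing and RNA-binding factors with 59 pairs, only Tial1 (higher) and Qk (lower) passed, both after double knockdown. Of 28 chromatin and transcription regulators with 51 pairs, Ehmt1, a histone methyltransferase, was higher after double knockdown. Of 22 vesicle and synapse genes with 34 pairs, Snap91 was lower after double knockdown. No list's median signed difference exceeded 0.2 points in size.

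Sequence inside the segment was compared for the 1268 pairs whose segment was at least 22 nucleotides long and could be read. The median share of pyrimidines in the 20 bases before the downstream AG was 70.0% over all of them. It was 70.0% in the 8 pairs that were higher and 55.0% in the 3 that were lower after Ptbp1 knockdown, and 72.5% in the 12 higher and 65.0% in the 4 lower pairs after double knockdown. The motif TCTT, searched on the transcript strand in up to 50 bases of segment before the downstream AG, occurred in 32.6% of all 1268 pairs, in 1 of the 8 higher and 0 of the 3 lower pairs after Ptbp1 knockdown, and in 4 of the 12 higher and 1 of the 4 lower pairs after double knockdown. TTCT, which can overlap TCTT, occurred in 38.4% of all, and in 5 of the 12 higher and 3 of the 4 lower pairs after double knockdown. CTCTCT occurred in 4.26% of all and in none of these. The numbers of pairs that passed are too small to set apart from the rest, and the sequence before the upstream acceptor was not used here.

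The levels of the host genes mostly stayed near control. Of 18 hosts of higher pairs after Ptbp1 knockdown, 1 was at least 2-fold higher and 1 at least 2-fold lower in FPKM, with a median log2 ratio of 0.09, and over all 2435 tested hosts with a level 66 were higher and 53 lower. Of 30 hosts of higher pairs after double knockdown, 1 was at least 2-fold higher and none lower, with a median log2 ratio of 0.05. Of 14 hosts of lower pairs after double knockdown, 1 was higher and none lower, with a median of -0.10. The low host after Ptbp1 knockdown was Kif1b, listed at 6.76 FPKM there, 42.2 after Ptbp2 knockdown, 48.8 after double knockdown and 43.0 in control. The reads over its acceptor trio did not show that gap: they numbered 717 after Ptbp1 knockdown and 710 in control.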

How the data were processed

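Per the submitters' processing notes, reads were handled with CASAVA, TopHat and Cufflinks on mm9; versions are not given in the sources used here. Per the file headers, the deposited SpliceTrap tables give each trio an inclusion ratio, a fraction (the estimated share of transcripts that include the middle segment), and counts of reads across its 3 junctions. They also give coverage, a deposited signal equal to reads times 100 over the length, from which reads over the trio were recovered. The ratio after the correction by SpliceTrap was used. FPKM of the authors' assembled transcripts were summed per gene after each library was scaled by its total of FPKM multiplied by transcript length. The deposited transcript files carry a Cufflinks score, used only for its rows' coordinates.

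On the plus strand, upstream reads are those that enter the segment from the exon before it. The tables order exons by the genome, so on the minus strand the junction was taken from the other end, and reads that cross a segment under 99 nucleotides were added back by estimate; this departs from the definition first written. The calculation was tested on simulated data. These were drawn with the same estimate for reads that cross a short segment, so they check the arithmetic and not that estimate. Genes were named for 98.5% of events, from RefSeq transcripts in the deposited files or, for 90 events, from the GENCODE match alone. Sequences came from GENCODE vM21 transcripts on GRCm38, matched by structure for 87.8% of events, of which 97.1% had a segment ending in AG. A lookup of the pairs of intron lengths on the next autosome gave 17 matches. It was not run for events on chromosome X or for matches by a single intron length. The latter include 922 events matched at the upstream acceptor alone, among them the printed Qk and Cask segments.

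Members, gene lists and rules were chosen with earlier results of these data known. Named pairs are, in each comparison and direction, the 10 longer pairs and 5 tandem pairs (12 nucleotides or fewer) with the largest smaller difference of both measures, among those past 20 points in both. A selection of them is described; 1 pair is not reported here, in the text or the plot of pairs. Each group had 1 library, so nothing was tested across samples. The alternatives were other read minima, junction reads, the uncorrected ratio, pairs counted once, short segments left out and, chosen after seeing the data, non-overlapping intervals and events with a same-length exon left out. Python 3.11.15, pandas 2.3.3, numpy 2.4.6 and matplotlib 3.10.9 were used. For the background of the stricter count, cassette exons were read by skipping reads and the mean of both inclusion junctions, where these reached 20 in every library.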

Additional observations from a re-analysis of the deposited data

How the results depend on the processing

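Counts of events past 20 points depended most on read depth and on the measure. They are given in the order higher after Ptbp1 knockdown, lower after Ptbp1 knockdown, then higher and lower for Ptbp2 knockdown against control, double knockdown against control, and double against Ptbp1 knockdown; as reported they were 60, 39, 53, 52, 76, 44, 45 and 40. With 50 reads in each library they were 41, 21, 35, 21, 50, 28, 26 and 22. With no read minimum they were 127, 155, 126, 152, 163, 150, 156 and 123. From junction reads alone they were 25, 12, 24, 15, 38, 23, 16 and 16. With both measures they were 20, 11, 14, 11, 33, 14, 11 and 14. Without segments of 12 nucleotides or fewer they were 35, 21, 30, 19, 49, 20, 25 and 17. With both measures and intervals apart, chosen after seeing the data, they were 16, 8, 8, 4, 26, 7, 10 and 6. The cause of these differences was not tested beyond the smaller number of events that each stricter rule admits. The ratio before correction, 20 reads in the compared libraries only, pairs counted once, and same-length exons left out (chosen after seeing the data) moved no count by over 1.5 times. The 90 named differences kept their direction with junction reads, which the rule that chose them also used, and with the ratio before correction. With junction reads 3 of them changed by more than the combined half-width of their junction intervals. These were Tpm2 between Ptbp1 knockdown and control (29.3 points by ratio, 50.2 by junction reads), Fam122b between Ptbp1 knockdown and control (-31.5 and -54.9), and Fam122b between double and Ptbp1 knockdown (29.7 and 51). Hdac10 between Ptbp2 knockdown and control went from 21.3 points to 34.8, within that width. The cause was not tested. Higher and lower counts under Ptbp2 knockdown were nearly equal as reported and unequal under some rules, so no direction is read from them. After Ptbp1 knockdown the higher counts exceeded the lower ones except with no read minimum. No paired analysis was possible because each group has 1 library.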
